A study of Mus musculus with 7 samples.

Results

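The 8 genes described are the 6 Iroquois homeobox genes of the mouse, Irx1 to Irx6, and the 2 Meox homeobox genes, Meox1 and Meox2. They were taken as every probe whose gene name on the array is one of these symbols, which gave 9 probes for 8 genes, of 55670 probes for 34792 gene names in all. Irx2 had 2 probes and each of the other 7 genes had 1. The genes were proposed because their levels had been seen to differ between atrial and ventricular cells on these same arrays, so that difference is described below without a test.

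The series holds 7 Agilent 8x60K expression arrays, each of them given 250 ng of total RNA with the dye Cy3. Cardiac mesenchymal progenitors (CMPs), stromal cells grown out of adult C57BL/6 heart tissue on collagen I with 10% serum and bFGF (basic fibroblast growth factor) at 40 ng/ml, made up 4 of them. Postmortem CMPs came from tissue kept for 24 h at 4 °C after death and living CMPs from tissue of living animals, each with 1 ventricular and 1 atrial array. Adult heart was 1 array of commercial RNA, whose strain the labels do not give. Fetal heart was 2 arrays of C57BL/6 hearts at embryonic day 16.5, 1 from mice carrying a Myh6-EGFP transgene, which expresses green fluorescent protein from a cardiomyocyte promoter, and 1 wild type. The labels do not say whether the arrays stand for separate cultures or animals or for pools, so the p-values measure only the spread between these arrays, which may be technical.

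Homeobox genes encode transcription factors that bind DNA through a homeodomain and hold positional identity in embryos and adult tissues. Iroquois proteins carry a homeodomain of the TALE class and sit in 2 gene clusters. In the mouse heart they pattern the ventricles and the conduction system. Meox proteins belong near the Hox family, act in the somites that give rise to muscle and vertebrae, and are also found in fibroblasts, vessel walls and valves of the heart.

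A value of 0 in what follows is the 75th percentile of an array's signals and 1 unit is a 2-fold step (log2). A signal the scanner software did not mark as well above background is called dim, and it gives only an upper limit to the level. No spot of any array was saturated. All 7 arrays lay on 1 slide and were read in 1 scan, with the CMPs in its first row and the hearts in its second, so the row and the difference between CMPs and hearts cannot be told apart.

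The probes of Irx1, Irx2 and Irx4 lie on chromosome 13 of mouse build mm9, in the IrxA cluster, at chr13:72095735-72095794 (minus strand) for Irx1, chr13:72771499-72771558 for the brighter Irx2 probe, chr13:72768784-72768843 for the other, and chr13:73406712-73406771 for Irx4. Those of the IrxB cluster lie on chromosome 8, at chr8:94322476-94322535 (minus strand) for Irx3, chr8:94884923-94884982 for Irx5 and chr8:95203880-95203939 for Irx6. Meox1 was read at chr11:101738847-101738906 (minus strand) and Meox2 at chr12:37905809-37905868. Whether a probe lies in coding sequence or a UTR is not given in the files. For 4 of the 8 genes RefSeq promoter sequence was at hand. The 250 bases before their starts (GRCm38.p6, 5′ to 3′ along the gene) are printed because these 4 cover the patterns found: Irx2 and Irx3 were brightest among CMPs on the postmortem atrial array, Irx4 was similarly low on all CMP arrays, and Meox2 was dim on the postmortem atrial array. Capitals mark matches on either strand to the TATA box TATAAA or the GC box GGGCGG.
Irx2 (chr13:72628570-72628819, plus strand): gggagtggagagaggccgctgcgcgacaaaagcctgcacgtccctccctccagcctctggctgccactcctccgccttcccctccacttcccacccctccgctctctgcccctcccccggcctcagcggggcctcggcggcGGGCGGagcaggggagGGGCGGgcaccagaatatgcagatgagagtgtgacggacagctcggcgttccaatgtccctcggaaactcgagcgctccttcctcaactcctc
Irx3 (chr8:91801655-91801904, minus strand): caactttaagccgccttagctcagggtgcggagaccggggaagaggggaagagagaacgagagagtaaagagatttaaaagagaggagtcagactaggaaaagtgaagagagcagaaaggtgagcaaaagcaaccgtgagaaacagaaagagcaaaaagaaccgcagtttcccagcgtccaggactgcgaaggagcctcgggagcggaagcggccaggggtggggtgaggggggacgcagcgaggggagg
Irx4 (chr13:73260247-73260496, plus strand): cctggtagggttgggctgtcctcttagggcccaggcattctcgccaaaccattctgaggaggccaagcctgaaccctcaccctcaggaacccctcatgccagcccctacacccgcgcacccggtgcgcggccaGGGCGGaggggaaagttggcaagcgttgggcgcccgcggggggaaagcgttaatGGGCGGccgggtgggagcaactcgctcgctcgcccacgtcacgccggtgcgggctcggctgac
Meox2 (chr12:37108290-37108539, plus strand): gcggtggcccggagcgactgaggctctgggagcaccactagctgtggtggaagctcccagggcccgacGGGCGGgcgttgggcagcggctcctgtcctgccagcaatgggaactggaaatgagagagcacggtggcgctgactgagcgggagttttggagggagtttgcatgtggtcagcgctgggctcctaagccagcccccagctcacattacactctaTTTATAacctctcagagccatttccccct
Irx2 and Irx4 each held 2 GC boxes, Meox2 held 1, and Irx3 held none. GC boxes were present in 32.7% of the 32851 windows of this length in the RefSeq table. Meox2 was the one of the 4 with a TATA box, on the opposite strand, from 29 to 24 bases before its start, a motif found in 12.4% of all windows. ACANNTGT, the palindrome bound by Iroquois proteins, was in none of the 4 and in 6.3% of all windows, and the homeodomain core TAATTA was in none of them and in 4.8%. No match overlapped another. The GC content of the windows was 68.4% for Irx2, 56.0% for Irx3, 68.8% for Irx4 and 62.0% for Meox2, against a median of 52.4% over all windows. The matches are letters found in these windows and nothing more.

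**Figure D1:**
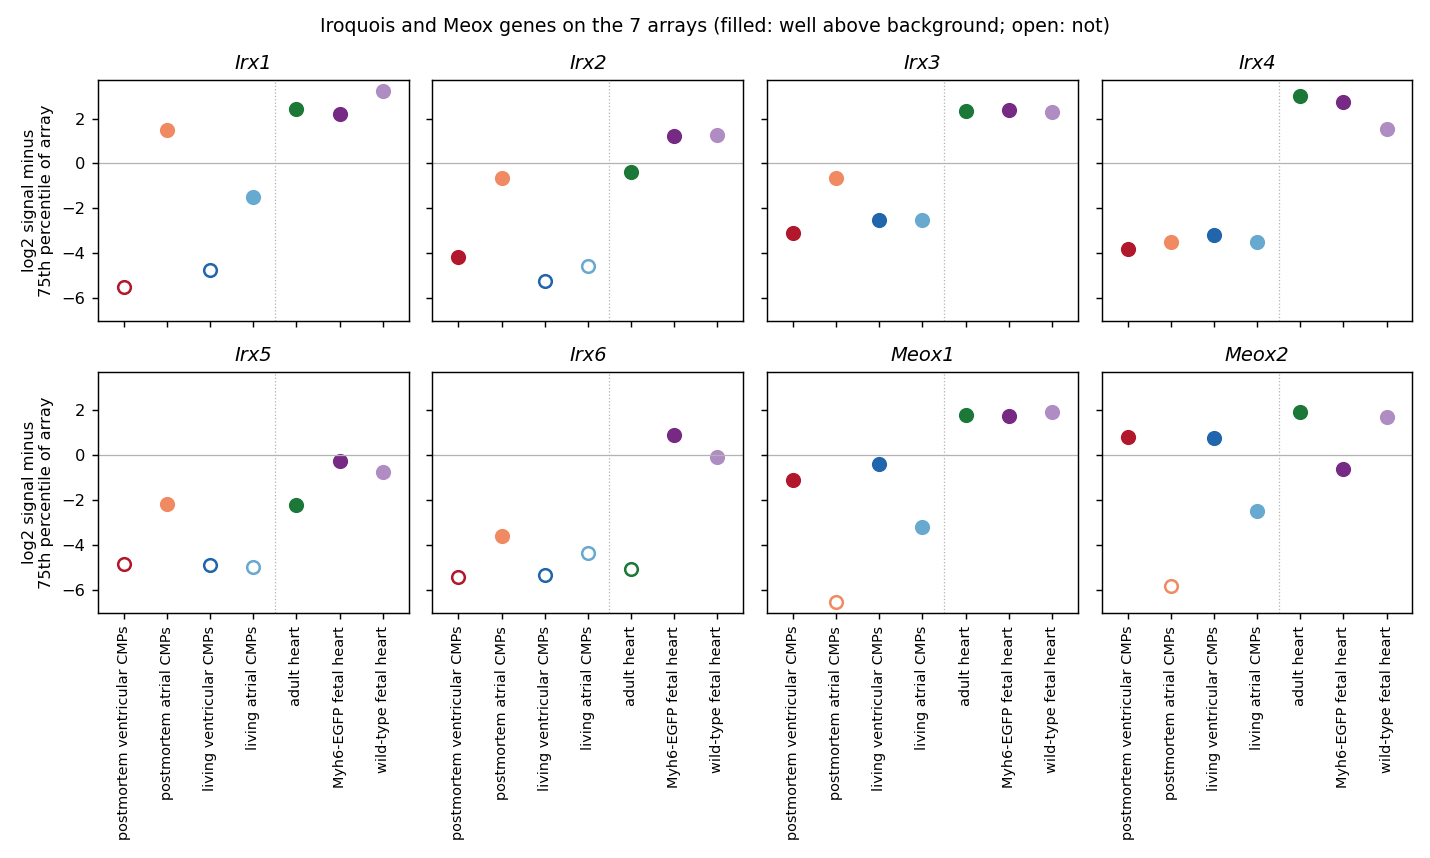
Signal of each gene on the 7 arrays, as log2 signal minus the 75th percentile of the array (vertical axis), with 1 point per array, filled where the signal was well above background and open where it was not. The CMP arrays stand left of the dotted line and the heart arrays right of it. The heart points lie near or above 0 for most genes, whereas many of the CMP points lie far below.

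The IrxA genes come first. Irx1, expressed in the embryonic ventricular septum of the mouse, had signals of -5.51 (dim) in postmortem ventricular and 1.48 in postmortem atrial CMPs, -4.75 (dim) in living ventricular and -1.49 in living atrial CMPs, 2.42 in adult heart, and 2.20 and 3.24 in Myh6-EGFP and wild-type fetal heart. Both atrial CMP arrays were above both ventricular ones, and all 3 hearts were above all 4 CMPs. The order among the hearts is open, since the fetal hearts differed from each other by 1.05 and the adult heart fell between them.

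Irx2, whose expression in the embryonic mouse heart overlaps that of Irx1, had signals of -4.18 and -0.63 in postmortem ventricular and atrial CMPs, of -5.27 and -4.56, both dim, in living ventricular and atrial CMPs, of -0.37 in adult heart, and of 1.21 and 1.25 in Myh6-EGFP and wild-type fetal heart. The postmortem ventricular minus atrial difference was -3.55, and the postmortem atrial array was close to the adult heart. The second Irx2 probe was dim on 4 of the 7 arrays and had its one CMP signal above background on the postmortem atrial array as well. It read -3.43 there and -7.06 (dim) in postmortem ventricular CMPs, where the lowest signal above background was -4.77.

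Irx4, a transcription factor of ventricular myocardium, was above background on every array. Its signals were -3.84 and -3.49 in postmortem ventricular and atrial CMPs, -3.19 and -3.52 in living ventricular and atrial CMPs, 2.99 in adult heart, and 2.73 and 1.54 in Myh6-EGFP and wild-type fetal heart. The 4 CMP arrays spanned 0.65, less than the 1.19 between the fetal hearts, so no order among the CMPs can be drawn. The CMP arrays of every other Iroquois gene spanned 1.83 or more.

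In the IrxB cluster, Irx3, which sets fast conduction in the mouse ventricular conduction system, was also above background on all 7 arrays. It had signals of -3.10 and -0.66 in postmortem ventricular and atrial CMPs, -2.52 and -2.51 in living ventricular and atrial CMPs, 2.33 in adult heart, and 2.37 and 2.29 in Myh6-EGFP and wild-type fetal heart. The 3 hearts lay within 0.08 of one another, and the postmortem atrial array lay 1.85 above its living counterpart.

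Irx5, a repressor of the potassium channel gene Kcnd2 in mouse ventricle, had signals of -4.87 (dim) and -2.16 in postmortem ventricular and atrial CMPs, -4.91 and -4.99, both dim, in living ventricular and atrial CMPs, -2.23 in adult heart, and -0.24 and -0.74 in Myh6-EGFP and wild-type fetal heart. The postmortem atrial CMPs and the adult heart were at almost the same signal, and the other 3 CMP arrays were dim. Irx6, the least studied of the family in the heart, had signals of -5.44 (dim) and -3.61 in postmortem ventricular and atrial CMPs, -5.35 and -4.36, both dim, in living ventricular and atrial CMPs, -5.07 (dim) in adult heart, and 0.91 and -0.07 in Myh6-EGFP and wild-type fetal heart. It was the one gene of the 8 that the adult heart array did not measure.

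Meox1, a somite factor that also marks activated heart fibroblasts in mice, had signals of -1.11 and -6.56 (dim) in postmortem ventricular and atrial CMPs, -0.40 and -3.19 in living ventricular and atrial CMPs, 1.81 in adult heart, and 1.77 and 1.91 in Myh6-EGFP and wild-type fetal heart. The 3 hearts lay within 0.15 of one another, and both ventricular CMP arrays were above both atrial ones. Meox2, which acts in limb muscle and in endothelium, had signals of 0.83 and -5.82 (dim) in postmortem ventricular and atrial CMPs, 0.76 and -2.47 in living ventricular and atrial CMPs, 1.91 in adult heart, and -0.60 and 1.70 in Myh6-EGFP and wild-type fetal heart. The ventricular CMPs were within the range of the fetal hearts, which differed from each other by 2.30, the widest fetal gap of the 8 genes. The wild-type fetal array was also above background for 4 of 5 markers of skeletal muscle precursors, against 1 of 5 on the Myh6-EGFP array, with Myog at 1.82 and Myod1 at -0.91. The part of such cells in the Meox2 value was not tested.

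Cardiomyocyte markers were low in CMPs. Of 8 cardiomyocyte markers 1 to 4 were above background on a CMP array and 8 on each heart array, and Myh6, Actc1, Myl7 and Nppa were dim on all 4 CMP arrays, whereas Tnnt2 was above background on all 4. Their summed signal, relative to the 75th percentile, ranged between 1.17 and 14.3 in CMPs and between 2439 and 5352 in hearts. All 7 fibroblast and mesenchymal markers were above background on every array. These summed to between 999 and 1357 in CMPs and between 304 and 474 in hearts. Endothelial markers summed to 8.29 to 13.3 in CMPs and 24.4 to 28.0 in hearts. In whole-heart RNA, fewer cells of a type and less RNA per cell cannot be told apart. One CMP array was unlike the rest. Postmortem atrial CMPs were at least 2-fold away from each other CMP array at 4227 to 4868 of 21817 genes, a count that was 2057 to 2371 between any 2 of the remaining 3.

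The chamber difference is the one the genes were chosen on, and it ran in opposite directions in the 2 families. In postmortem CMPs Irx1 was at least 76.3-fold lower in ventricular than in atrial cells, Irx2 was 11.7-fold lower and Irx3 5.43-fold lower. Irx5 was at least 6.12-fold lower there and Irx6 at least 2.23-fold lower, each from a dim ventricular signal. Meox1 was at least 9.69-fold higher in postmortem ventricular than in atrial cells and Meox2 at least 37.2-fold higher.

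In living CMPs fewer of the genes could be compared. Irx1 was at least 6.69-fold lower in living ventricular than in living atrial cells. Meox1 was 6.90-fold higher and Meox2 9.35-fold higher, both measured on each array. Irx3 differed by 0.01 and Irx4 by 0.33 on the log2 scale, while Irx2, Irx5 and Irx6 were dim in both chambers, so no fold can be given. The chamber difference of Irx1, Meox1 and Meox2 thus had the same direction in both kinds of CMPs, with 1 array behind each level.

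**Figure D2:**
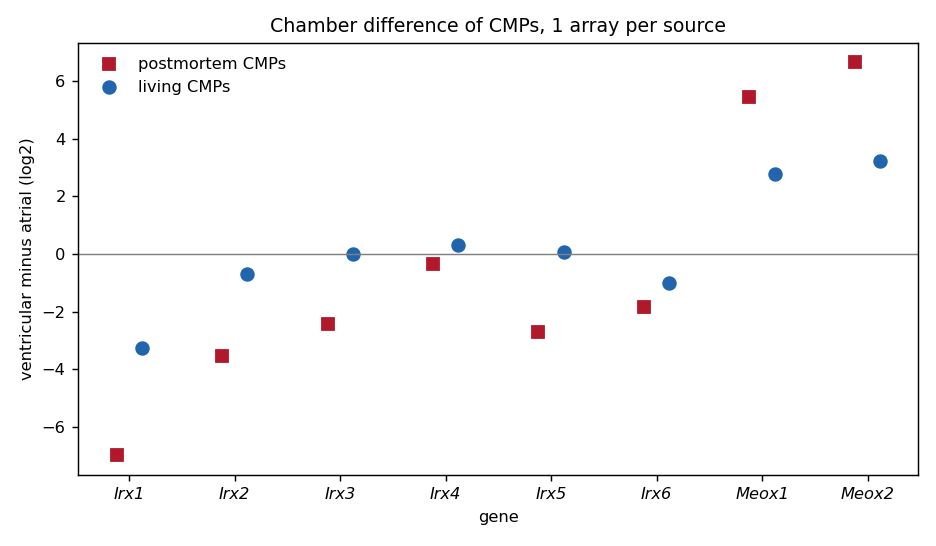
Ventricular minus atrial signal (log2, vertical axis) of each gene in postmortem CMPs (squares) and in living CMPs (circles), each point the difference of 2 arrays. Irx1 lies at -6.99 and -3.26 and Meox2 at 6.65 and 3.22, whereas Irx4 lies at -0.35 and 0.33. Dim signals are drawn as read and not as limits.

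Of the 8 genes, 5 were above background on both arrays of a chamber and could be read against all genes. For 4 of these 5 the ventricular and atrial arrays did not overlap: Irx1 and Irx3 were lower in ventricular CMPs and Meox1 and Meox2 higher. Over all 18906 genes read in this way, 14.4% were lower without overlap in ventricular cells and 22.1% higher, and since the genes were chosen on this contrast nothing is read from the count. The separation of Irx3 rests on 0.01 between the 2 living arrays, and with normexp background correction living ventricular cells were 0.07 above living atrial cells. Just outside the count, Irx4 overlapped, and Irx6 did not overlap but was above background on the postmortem atrial array alone among CMPs. No count is read with a CMP array left out, since fewer arrays make overlap less likely for any gene.

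Some markers of mesothelium, the sheet that covers the heart, moved with the same contrast. Of 5 epicardial and mesothelial markers 2 were above background on both ventricular CMP arrays and 4 on both atrial ones. Gpm6a had signals of -5.04 (dim) and -0.82 in postmortem ventricular and atrial CMPs and of -6.51 (dim) and -1.66 in living ventricular and atrial CMPs. Msln was dim on both ventricular CMP arrays and above background on both atrial ones. Wt1, the defining epicardial factor, was dim on all 4. Krt19 went the other way, with -1.52 and -2.18 in postmortem ventricular and atrial CMPs and -2.99 and -3.44 in living ones. Upk3b was higher in ventricular cells in postmortem CMPs (-1.41 against -2.40) and lower in living CMPs (-3.81 against -0.52). The summed signals of the list did not overlap between chambers, at 0.81 and 0.28 in postmortem and living ventricular CMPs and 1.05 and 1.28 in postmortem and living atrial CMPs. The summed signal of pericyte and smooth muscle markers also separated the chambers. It was 181 and 159 in postmortem and living ventricular CMPs and 110 and 128 in postmortem and living atrial CMPs. Acta2, the brightest of the list on each CMP array, had 7.26 and 6.08 in postmortem ventricular and atrial CMPs. In living ones it had 7.00 and 6.59. Myh11 was above background on both ventricular CMP arrays and dim on both atrial ones, and Cnn1 was higher in ventricular cells in both states. Rgs5 ran the other way, with -2.86 and 2.998 in postmortem ventricular and atrial CMPs and -5.80 (dim) and 1.31 in living ones. So did Cspg4, with -0.22 and 2.69 in postmortem and -1.93 and -0.89 in living ventricular and atrial CMPs, and Pdgfrb overlapped. The part of such cells in the Irx and Meox values was not tested.

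The next comparison set CMPs against fetal heart, the positive control of the study. All 6 Iroquois genes and Meox1 were lower in CMPs, and Meox2 was not called. That makes 7 of 8 genes, against 25.3% of the 20044 genes tested that were lower in CMPs. Only Irx3 and Irx4 were above background on every CMP array. The other 6 were tested because both fetal arrays measured them, a filter that favours genes low in CMPs. Irx1 and Irx2 were above background on 2 of the 4 CMP arrays, Irx5 and Irx6 on 1, and Meox1 and Meox2 on 3.

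Irx4 had a mean of -3.51 ± 0.27 in CMPs (SD, n = 4) and 2.14 ± 0.84 in fetal heart (SD, n = 2), and fell by 5.65 ± 0.40 in CMPs (log2 ± SE, adjusted p = 0.000371). Irx1 fell by 5.29 ± 0.76 in CMPs (adjusted p = 0.00315), and Irx6 fell by 5.11 ± 0.43 (adjusted p = 0.000577). Irx2 fell by 4.89 ± 0.58 (adjusted p = 0.00163) and Irx3 fell by 4.53 ± 0.49 (adjusted p = 0.00122). Irx5 fell by 3.75 ± 0.60 (adjusted p = 0.00464), a call that was lost without the Myh6-EGFP fetal array (adjusted p = 0.0514). For all 6 genes each of the 4 CMP arrays was below both fetal arrays. With dim CMP signals raised to the lowest signal above background of their array, an alternative chosen after seeing the data, the differences were -4.98 for Irx1, -4.58 for Irx2, -3.39 for Irx5, -4.66 for Irx6 and -4.11 for Meox1.

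Meox1 fell by 4.65 ± 0.53 in CMPs (adjusted p = 0.00151), with each CMP array below both fetal ones. Meox2 averaged -1.68 ± 3.16 in CMPs (SD, n = 4) and 0.55 ± 1.62 in fetal heart (SD, n = 2), a difference of -2.23 ± 0.89 (adjusted p = 0.0897), and the groups overlapped. Leaving out any 1 of the 4 CMP arrays left a single residual degree of freedom, and no calls are read from those fits. The Meox2 difference was -1.37 without the postmortem atrial or the living ventricular array. It was -3.08 without the postmortem ventricular or the living atrial one. It was -1.08 without the wild-type fetal array and -3.38 without the Myh6-EGFP fetal array, neither of them called. Without a term for chamber, Irx1, Meox1 and Meox2 were not called.

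Other cell types in the hearts moved with this comparison. Of 6 markers of airway, thymus or other epithelium 0 or 1 was above background on a CMP array, 2 in adult heart, and 4 and 5 in Myh6-EGFP and wild-type fetal heart, with summed signals of 0.07 to 0.74 in CMPs, 3.31 in adult heart, and 26.8 and 42.3 in Myh6-EGFP and wild-type fetal heart. Epicardial and mesothelial markers summed to 0.28 to 1.28 in CMPs, 11.5 in adult heart, and 38.2 and 29.1 in Myh6-EGFP and wild-type fetal heart. The part of such cells in the Irx and Meox differences was not tested.

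Against the adult heart array, 6 of 7 genes tested were lower in CMPs, beside 25.4% of 20270 genes. Irx1, Irx2, Irx5, Meox1 and Meox2 were tested only because the adult array measured them, again a filter that favours genes low in CMPs. Irx4 fell by 6.51 ± 0.52 in CMPs (adjusted p = 0.000644), Irx1 fell by 4.99 ± 0.98 (adjusted p = 0.00942) and Meox1 fell by 4.62 ± 0.69 (adjusted p = 0.00380). Irx3 fell by 4.53 ± 0.63 (adjusted p = 0.00303) and Irx2 fell by 3.29 ± 0.74 (adjusted p = 0.0153). These 5 had no CMP array at or above the adult heart. Without a chamber term Irx1, Irx2 and Meox1 were not called (adjusted p of 0.0689 to 0.157), nor was Irx2 with the mean of its probes (adjusted p = 0.0632). Meox2 fell by 3.59 ± 1.14 (adjusted p = 0.0462), a call that was lost under 8 of the alternative settings (adjusted p of 0.0501 to 0.285). Irx5 differed by -2.0 ± 0.78 (adjusted p = 0.0807), with the postmortem atrial CMPs at the adult level, and Irx6 was not tested. With dim CMP signals at the floor of their array the differences were -4.67 for Irx1, -2.98 for Irx2, -1.64 for Irx5, -4.08 for Meox1 and -3.23 for Meox2. The adult heart is a single array, which the fit assumes to vary like the other groups.

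**Figure D3:**
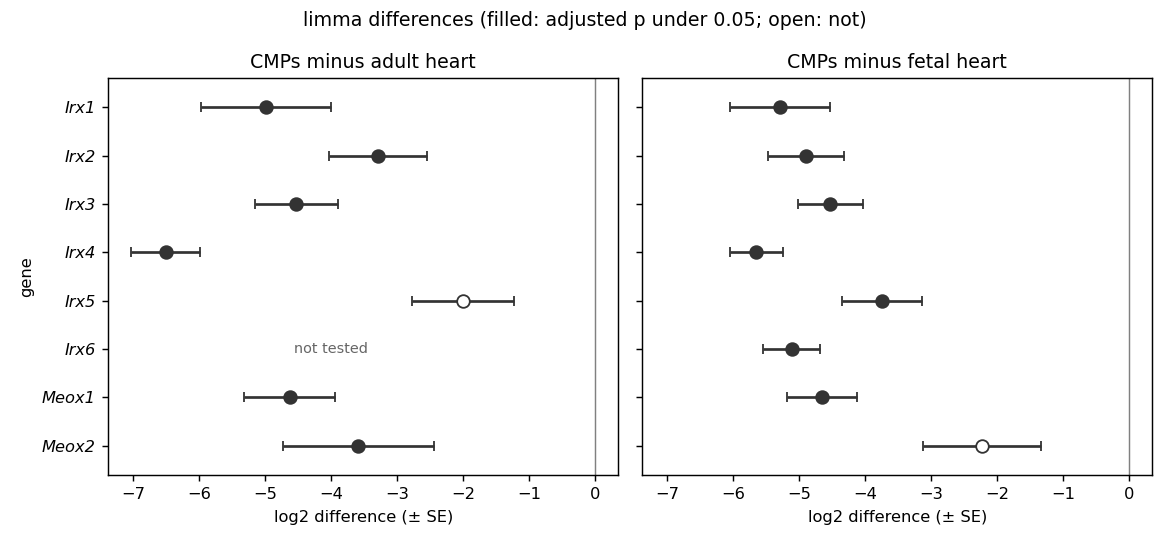
Difference of CMPs minus adult heart (left) and CMPs minus fetal heart (right) for each gene, in log2 units with the SE from limma as bars, filled where the adjusted p was under 0.05. All tested differences lie below 0, and the open points are Irx5 against adult heart and Meox2 against fetal heart.

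Adult and fetal heart differed in 1 of the 8 genes. Irx6 was at least 16.6-fold lower in adult than in fetal heart (limma adjusted p = 0.00272), and 17.2% of the 20936 genes tested were lower in adult heart. Irx6 was dim in adult heart and was tested only because both fetal arrays measured it. That filter favours genes low in adult heart. Epithelial markers moved with Irx6, with the summed signals given above. Among them Krt8 had signals of -0.56 in adult heart and 2.32 and 3.48 in Myh6-EGFP and wild-type fetal heart, and Epcam and Cdh1 were dim in adult heart and above background in both fetal hearts. The part of such cells in the Irx6 difference was not tested. Irx5 differed by -1.75 ± 0.85 (adjusted p = 0.159) and Irx2 by -1.60 ± 0.81 (adjusted p = 0.173). Irx3 and Meox1 were close to equal, with differences of 0.00 ± 0.69 and -0.03 ± 0.75. For the 7 genes not called the adjusted p ranged between 0.159 and 0.998, and with 1 adult array differences of about 1 to 2 units could not be told from the spread. Fits with any 1 of the CMP arrays left out have 1 residual degree of freedom, and no calls are read from them.

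Postmortem and living CMPs addressed whether cells from stored tissue keep their expression. None of the 5 genes tested was called by limma, over a background of 0.105% of 19007 genes. An unadjusted p under 0.05 was found for 2085 of the 19007 genes and for 2 of the 5. These were Irx2, with a difference of 2.51 ± 0.66 (unadjusted p = 0.0102, adjusted p = 0.307), and Meox1, with -2.04 ± 0.61 (unadjusted p = 0.0176, adjusted p = 0.348). Irx3 differed by 0.63 ± 0.56, Irx4 by -0.31 ± 0.46 and Meox2 by -1.64 ± 1.02. Irx1, Irx5 and Irx6 were above background on both arrays of neither side and were not tested. With a ventricular CMP array left out, the difference is set by the 2 atrial arrays alone. No calls are read from those fits, and the atrial differences are described below.

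Within chambers the picture was uneven. In ventricular CMPs the postmortem minus living differences of the 8 genes lay between -0.75 and 1.09, both ends resting on dim signals. Among the 4 measured on both arrays Meox2 differed by 0.07 and Meox1 by -0.71. In atrial CMPs Irx1 was 7.86-fold higher in postmortem than in living cells, Irx3 was 3.61-fold higher, Irx2 at least 13.0-fold higher and Irx5 at least 4.51-fold higher. Meox1 was at least 2.29-fold lower and Meox2 at least 3.78-fold lower in postmortem than in living atrial cells, while Irx4 differed by 0.03. For every gene but Irx4 the atrial difference was the larger one, and it involves the postmortem atrial array, the one unlike the rest over all genes.

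**Figure D4:**
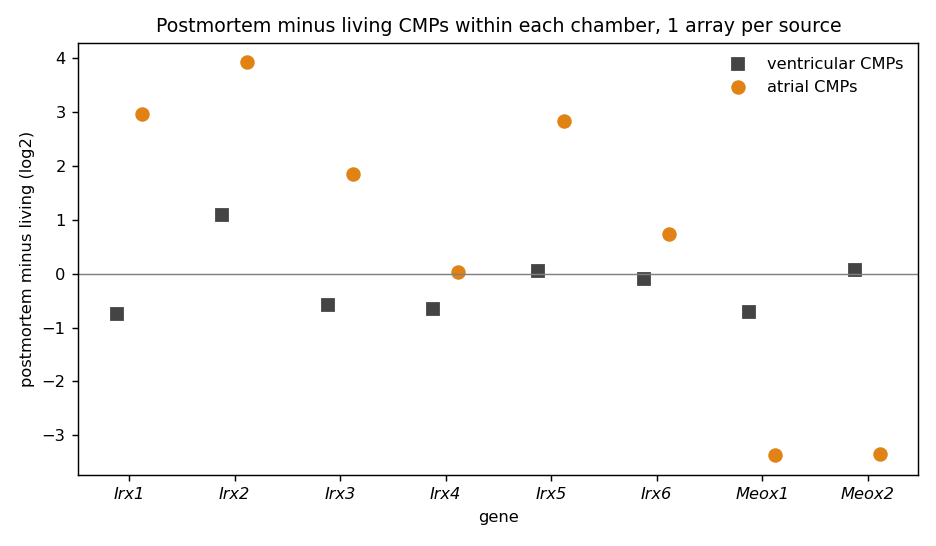
Postmortem minus living signal (log2, vertical axis) of each gene within ventricular CMPs (squares) and atrial CMPs (circles), each point the difference of 2 arrays. The ventricular points lie between -0.75 and 1.09, and the atrial points between -3.37 and 3.93. Dim signals are drawn as read and not as limits, and each of these ends involves a dim signal.

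The chamber difference was then set side by side for both states of the tissue. The arrays are those on which the genes were chosen, so the values are a description, and nothing is read from the 4 of 8 genes that passed the interaction test beside 3.06% of 21817 genes. The ventricular minus atrial difference in postmortem CMPs minus that in living CMPs was -3.72 ± 0.72 for Irx1, -2.43 ± 0.71 for Irx3 and -2.84 ± 0.92 for Irx2 (log2 ± SE). It was 3.43 ± 0.74 for Meox2 and 2.66 ± 0.78 for Meox1. The fetal pair is the only replicated group in this fit, and limma pooled its spread over genes, so the SE is not a gene's own. Of the 8, 0 passed with quantile normalization and 2 without the adult heart array. With dim signals set to the lowest signal above background of their array the Meox1 value was 0.49 and the Meox2 value 1.99, against -3.51 for Irx1 and an unmoved -2.43 for Irx3, which was measured on all arrays.

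Genes known to act with or under the Iroquois factors were then described in the same comparisons. Of 18 chamber and conduction genes 17 were tested against fetal heart. Of these 13 were lower and 1 was higher in CMPs, with a median difference of -4.08, against -0.02 over all genes tested, of which 25.3% were lower and 22.3% higher. Of the 13, Kcnd2, Gja5, Hey2, Myl2, Myl7, Sln, Nppa and Hand1 were tested only because both fetal arrays measured them. This filter favours genes low in CMPs. Among the 13 were sarcomere and atrial peptide genes. Myl2, the ventricular myosin light chain, fell by 13.68 ± 0.26 (adjusted p = 2.44e-05), and Myl7, the atrial light chain, was at least 2580-fold lower (adjusted p = 3.45e-05). Nppa, atrial natriuretic peptide, was at least 6570-fold lower (adjusted p = 2.44e-05), and Sln, sarcolipin of the atria, at least 258-fold lower (adjusted p = 7.28e-05). Myl2, Myl7 and Nppa are also in the list of 8 cardiomyocyte markers, of which 1 to 4 were above background on a CMP array. Tnnt2 of that list had signals of 2.46 and 3.76 in postmortem ventricular and atrial CMPs and -0.15 and 3.82 in living ones. The part of cardiomyocyte RNA in these differences was not tested.

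Among genes known from mice as targets of single Iroquois factors, 2 were lower and dim on most CMP arrays. Gja5, a gap junction gene raised by Irx3, had signals of -2.15 in postmortem ventricular CMPs and was dim on the other 3 CMP arrays, against -0.55 in adult heart and 3.73 and 2.76 in Myh6-EGFP and wild-type fetal heart, and fell by 8.35 ± 0.76 against fetal heart (adjusted p = 0.000742). Kcnd2, the target of Irx5, was dim on all 4 CMP arrays and at least 13.2-fold lower in CMPs than in fetal heart (adjusted p = 0.000368). Gja1, a gap junction gene lowered by Irx3, had signals of -0.49 and 0.86 in postmortem ventricular and atrial CMPs, -1.08 and -0.54 in living ventricular and atrial CMPs, 2.27 in adult heart, and 1.82 and 0.78 in Myh6-EGFP and wild-type fetal heart, and fell by 1.61 ± 0.35 in CMPs against fetal heart (adjusted p = 0.0140). Cxcl12, a chemokine, was the 1 gene of the list higher in CMPs than in fetal heart, by 2.42 ± 0.36 (adjusted p = 0.00336). Against adult heart 12 of 16 genes of the list were lower in CMPs and 0 higher (median -4.04, against -0.05 over all genes, of which 25.4% were lower and 23.3% higher), led by the same light chain and peptide genes. There Myl2 fell by 14.50 ± 0.33 (limma adjusted p = 7.70e-05). Nppa, Sln and Myl7 were at least 8722-fold, 1590-fold and 676-fold lower (adjusted p of 8.66e-05 to 0.000159). Myl2, Nppa, Sln, Myl7, Kcnd2, Kcnip2 and Gja5 were tested there only because the adult array measured them.

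Between adult and fetal heart 4 of 18 genes of this list were higher and 4 lower in adult heart, beside 19.2% and 17.2% of all genes. Kcnip2, a potassium channel subunit, was at least 117-fold higher (adjusted p = 0.000739). Hand1, a transcription factor of the left ventricle in mouse embryos, was at least 9.46-fold lower (adjusted p = 0.0201) and Hey2, a ventricular repressor of atrial genes, at least 9.76-fold lower (adjusted p = 0.0290). Gja5 fell by 3.79 ± 1.07 in adult against fetal heart (adjusted p = 0.0403). Kcnip2 was tested only because the adult array measured it, and Hand1 and Hey2 only because both fetal arrays did.

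Between ventricular and atrial CMPs 9 of the 18 genes could be read, of which 2, Cxcl12 and Hand2, were lower in ventricular cells without overlap and 0 were higher, beside 14.4% and 22.1% of all genes. The separation of Hand2 is marginal, with 2.34 on both postmortem arrays. Hand1 could not be counted there because it was above background on the postmortem atrial array alone among CMPs, at -1.77. In postmortem against living CMPs none of the 11 genes tested was called by limma. Of the 11, 3 had an unadjusted p under 0.05, beside 2085 of 19007 genes in all. The largest differences were 1.93 ± 0.70 for Hey2 (adjusted p = 0.409) and -1.15 ± 0.41 for Cxcl12 (adjusted p = 0.403).

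**Figure D5:**
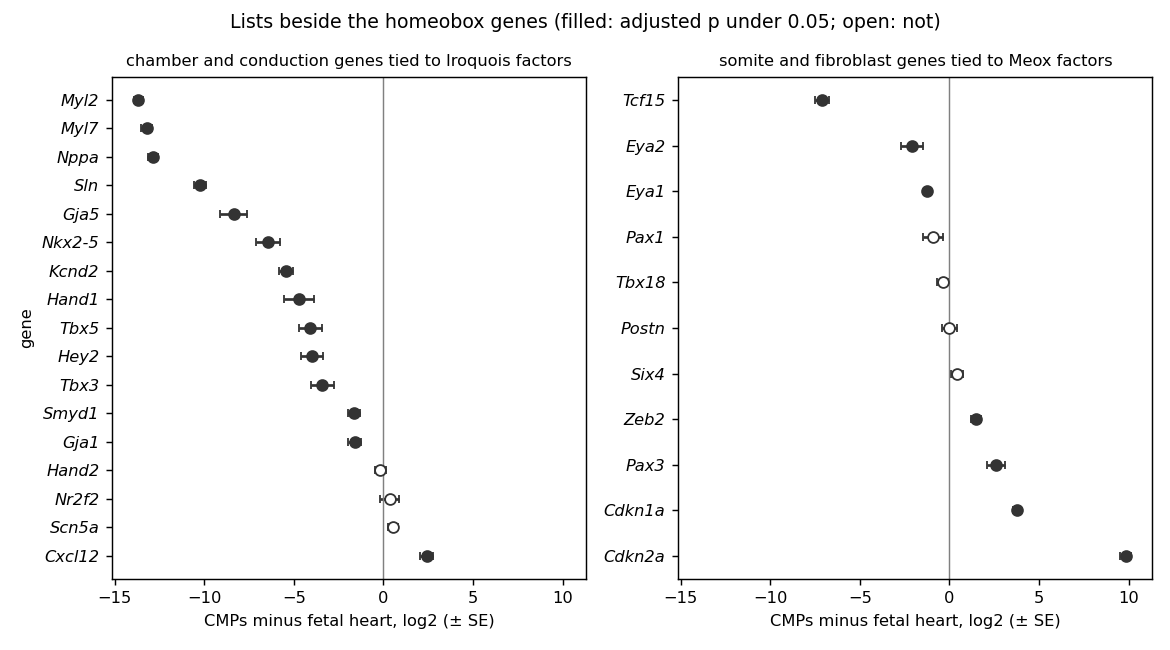
Difference of CMPs minus fetal heart (log2, with the SE from limma as bars) for the tested genes of the list tied to Iroquois factors (left) and of the list tied to Meox factors (right, 1 gene not shown), filled where the adjusted p was under 0.05. The left panel runs down to -13.68 for Myl2 and the right panel spreads on both sides of 0.

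The somite and fibroblast genes tied to Meox factors were mixed. Of 15 genes 12 were tested against fetal heart, 4 were higher and 3 lower in CMPs, beside 22.3% and 25.3% of all genes. The median was 0.21. Of those called, Cdkn2a and Pax3 were tested only because every CMP array measured them. Tcf15 and Eya2 were tested only because both fetal arrays did. This filter favours genes high on the side that measured them. Cdkn2a and Cdkn1a, cell cycle inhibitors known as Meox targets in human endothelial cells, were both higher in CMPs: Cdkn2a was at least 838-fold higher (adjusted p = 6.59e-05) and Cdkn1a rose by 3.76 ± 0.20 (adjusted p = 0.000185). Tcf15, a somite factor, was dim on all CMP arrays and at least 39.2-fold lower (adjusted p = 0.000222), and Pax3, a muscle precursor factor, rose by 2.59 ± 0.49 (adjusted p = 0.00790). Against adult heart 6 of 11 genes were higher and 3 lower (median 1.67), beside 23.3% and 25.4% of all genes. There Tcf15 was at least 97.3-fold lower in CMPs (adjusted p = 0.000393) and was tested only because the adult array measured it. Cdkn2a rose by 7.65 ± 0.39 (adjusted p = 0.000267) and Cdkn1a by 3.41 ± 0.26 (adjusted p = 0.000589). Between adult and fetal heart 1 of 11 was higher and 2 lower (19.2% and 17.2% over all genes). Pax1, a sclerotome factor, was at least 6.61-fold lower in adult heart (adjusted p = 0.00935). Tbx18, a factor of epicardium and sinus node, was also lower there (difference -2.40 ± 0.47, adjusted p = 0.0142). Cdkn2a was at least 4.16-fold higher in adult heart (adjusted p = 0.0136). Pax1 was tested there only because both fetal arrays measured it, and Cdkn2a only because the adult array did.

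Of these Meox-tied genes 12 could be read between ventricular and atrial CMPs, and 6 were higher and 2 lower in ventricular cells without overlap, beside 22.1% and 14.4% of all genes. Pax3 had signals of -0.29 and -4.0 in postmortem ventricular and atrial CMPs and -0.18 and -1.81 in living ventricular and atrial CMPs, and Postn, a fibroblast matrix gene, had 5.66 and 1.56 in postmortem ventricular and atrial CMPs and 4.66 and 2.65 in living ones. Both thus were higher in the 2 ventricular cultures, as the Meox genes were. Pax1 ran the other way, with -2.90 and 1.51 in postmortem ventricular and atrial CMPs and -3.84 (dim) and -2.04 in living ones. None of the 12 genes tested between postmortem and living CMPs was called by limma. Beside 2085 of 19007 genes in all, 2 of the 12 had an unadjusted p under 0.05. These were Eya2, with -3.24 ± 0.70 (adjusted p = 0.249), and Pax1, with 2.25 ± 0.63 (adjusted p = 0.326).

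The homeobox relatives of the Iroquois genes were mixed. Of 12 other TALE-class genes, the Meis, Pbx, Pknox and Tgif genes and Mkx, many of them partners of Hox proteins on DNA, 3 were higher and 4 lower in CMPs than in fetal heart (22.3% and 25.3% over all genes), and against adult heart 8 of 12 were higher and 0 lower (median 1.72), beside 23.3% and 25.4% of all genes. Pknox2 rose by 2.61 ± 0.25 against fetal heart (adjusted p = 0.000866), while Pbx2 fell by 1.83 ± 0.17 (adjusted p = 0.000856), Tgif2 fell by 2.34 ± 0.51 (adjusted p = 0.0134) and Meis3 rose by 1.52 ± 0.16 (adjusted p = 0.00119). Against adult heart Tgif1 rose by 2.90 ± 0.31 (adjusted p = 0.00133) and Meis2 by 2.18 ± 0.32 (adjusted p = 0.00353). Tgif2 and Pbx4 were at least 1.72-fold and 1.10-fold higher in CMPs (adjusted p of 0.0173 and 0.00743). Both were tested against adult heart only because every CMP array measured them, a filter that favours genes high in CMPs.

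Between adult and fetal heart 0 of 11 TALE-class genes were higher and 7 lower in adult heart, beside 19.2% and 17.2% of all genes. Tgif2 was at least 8.67-fold lower (adjusted p = 0.00536). Like Pbx4, it was tested there only because both fetal arrays measured it. Pbx2 fell by 2.61 ± 0.25 (adjusted p = 0.00189), Meis2 fell by 2.33 ± 0.35 (adjusted p = 0.00635) and Pbx4 was dim in adult heart and below both fetal arrays, with no fold to give (adjusted p = 0.0248). Between chambers 3 of 12 were lower and 1 higher in ventricular CMPs without overlap (14.4% and 22.1% over all genes). None of the 12 was called by limma between postmortem and living CMPs. There 1 had an unadjusted p under 0.05, beside 2085 of 19007 genes in all. The largest of those differences were 0.81 ± 0.58 for Tgif2 (adjusted p = 0.673) and -0.54 ± 0.19 for Meis3 (adjusted p = 0.396).

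Of 11 homeobox genes close to Hox and Meox, 8 were dim on every array. Evx2, a gene at the end of a Hox cluster, was above background on all 7, at -1.22 to -0.52, and differed by 0.43 ± 0.24 between CMPs and fetal heart (adjusted p = 0.199) and by -0.09 ± 0.31 between CMPs and adult heart (adjusted p = 0.837). Gbx2, a midbrain and hindbrain patterning gene, had signals of -2.84 and -6.31 (dim) in postmortem ventricular and atrial CMPs, 0.58 and -1.87 in living ventricular and atrial CMPs, -2.60 in adult heart, and was dim in both fetal hearts. It was at least 3.94-fold higher in adult than in fetal heart (adjusted p = 0.00583). Between postmortem and living CMPs it differed by -3.93 ± 0.42 (adjusted p = 0.0650), and between CMPs and adult heart by -0.01 ± 0.48. In each case Gbx2 was tested only because a single side measured it throughout. Its lowest CMP array was the postmortem atrial one, as for Meox1 and Meox2.

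Of 12 genes that neighbour the Iroquois clusters or Meox genes, 10 were tested against fetal heart, with 1 higher and 4 lower in CMPs, beside 22.3% and 25.3% of all genes. Mmp2, a matrix protease gene near the IrxB cluster, rose by 2.16 ± 0.24 in CMPs (adjusted p = 0.00137), and Crnde (4933436C20Rik on the array), which lies beside Irx5, fell by 2.98 ± 0.35 (adjusted p = 0.00161). Crnde had signals of -2.89 and -1.28 in postmortem ventricular and atrial CMPs, -4.16 (dim) and -3.43 in living ventricular and atrial CMPs, -2.94 in adult heart, and 0.36 and -0.28 in Myh6-EGFP and wild-type fetal heart. It was brightest among CMPs on the postmortem atrial array, as Irx5 was. Sostdc1, a secreted inhibitor beside Meox2, was dim in CMPs and at least 2.38-fold lower (adjusted p = 0.00566). Ndufs6, a respiratory chain subunit near the IrxA cluster, fell by 1.28 ± 0.28 (adjusted p = 0.0134). Crnde and Sostdc1 were tested against fetal heart only because both fetal arrays measured them, a filter that favours genes low in CMPs. Against adult heart 3 of 9 neighbours were higher and 2 lower in CMPs (23.3% and 25.4% over all genes). There Ndufs6 fell by 2.87 ± 0.36 (adjusted p = 0.00219), while Etv4, a transcription factor downstream of fibroblast growth factor, rose by 2.72 ± 0.32 (adjusted p = 0.00186). Mmp2 rose by 2.45 ± 0.31 (adjusted p = 0.00226) and Rpgrip1l, a cilium gene beside Fto, by 1.80 ± 0.38 (adjusted p = 0.0125).

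Between adult and fetal heart 2 of 10 neighbours were higher and 3 lower in adult heart, beside 19.2% and 17.2% of all genes. Crnde fell by 2.98 ± 0.50 in adult heart (adjusted p = 0.00870), Etv4 fell by 2.51 ± 0.35 (adjusted p = 0.00545), Rpgrip1l fell by 1.85 ± 0.42 (adjusted p = 0.0217) and Ndufs6 rose by 1.59 ± 0.39 (adjusted p = 0.0278). None of the 9 tested between postmortem and living CMPs was called by limma. Of the 9, 2 had an unadjusted p under 0.05, beside 2085 of 19007 genes in all. They were Crnde, at 1.71 ± 0.40 (adjusted p = 0.264), and Etv4, at 0.74 ± 0.29 (adjusted p = 0.441). Fto, whose introns hold long-range enhancers of Irx3 in mouse, was above background on all arrays at 1.02 to 1.84.

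Genes of similar pattern were ranked by the root mean square difference of log2 signals over the 7 arrays, after each gene was centred on its mean and dim signals were raised to the lowest signal above background. Irx4 had the closest partners, at 0.18 for Gm889 (now Lsmem1), 0.21 for Kcng2 and 0.26 for Kcnh2, the last 2 of them genes of potassium channel subunits. All of these partners were below that lowest signal on every CMP array. Their CMP values were thus set by it, and the likeness rests on the hearts. Ntf3, a neurotrophin, was closest to Irx2 (0.35), and Nudt10 and Nudt11 followed at 0.62 and 0.66. Irx3 was most like Mmp15 (0.43), Rrad (0.46) and Dok2 (0.47). The genes most like Irx5 were Unc13b (0.36), Grtp1 (0.39) and Nudt10 (0.39). Those most like Irx6 were Grhl3 (0.30), BC100530 (now Cstdc5, 0.32) and Krt17 (0.33), the last of them also below the lowest signal on every CMP array. Irx1 had no close partner, with Pgm5 at 0.93 and Ntf3 and Adamts15 at 1.10 each.

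The Meox genes also had few near partners. Meox1 was most like As3mt (0.64), AI661453 (0.73) and Ptpn18 (0.80), and Meox2 most like Eya2 (0.84), Ppp1r14a (0.91) and Cd40 (1.13). Eya2, a cofactor in muscle precursors, had signals of -1.50 and -6.52 (dim) in postmortem ventricular and atrial CMPs and 0.75 and -2.28 in living ventricular and atrial CMPs, so that it shared the dim postmortem atrial array with both Meox genes. Among the 8 genes themselves the smallest distances were 0.78 between Irx2 and Irx3 and 0.79 between Irx2 and Irx5, the Meox pair stood at 1.25, and the largest was 3.82, between Irx1 and Meox2. These distances rest on 7 arrays that split into CMPs and hearts, and they are a description.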

How the data were processed

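The authors deposited 1 scanner file per array. Its intensity columns are linear spot brightness and a processed signal, background-subtracted and detrended per the file headers. Feature Extraction made them, in version 10.7.3.1 by the headers and 9.5.3 by the submitters' processing notes. The deposited series table of log2 values equalled log2 processed signals minus a constant per array, for 100% of probes within 0.001.

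The working value was log2 processed signal minus the 75th percentile of an array's non-control spots. Spots of 1 probe were averaged, and outlier flags removed 11 probes. The share of probes well above background was 46.5% to 52.5% by array. A gene was read by its probe of highest mean. Gene names are those of the array, and 20190 of 34792 matched a RefSeq accession, all 8 members among them.

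Two-sided tests came from limma 3.58.1 (lmFit, eBayes with trend) under R 4.3.3. All 7 arrays entered together, with a mean for each of postmortem CMPs, living CMPs, adult and fetal heart plus a chamber term for the CMPs (2 residual degrees of freedom). The interaction fit had a term for each CMP source (1 residual degree of freedom). A gene was tested if 1 side or both had it above background throughout, and Benjamini-Hochberg adjustment ran over all of them, with a threshold of 0.05. This filter favours genes that are high on 1 side and dim on the other, in the lists as among the members. The code was tested on simulated data. A fold marked "at least" sets the dim side to the higher of its own signal and its array's lowest signal above background.

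The members and gene lists were chosen with earlier results of these data known. Named genes are all 8 members, the 3 genes nearest to each in pattern, and of each list the 4 largest called differences per comparison, or the 2 largest where none was called. A gene of the Meox-tied list is counted but not reported here by name. Further genes of the lists were chosen after their values were seen. Alternatives were normexp background correction (offset 50), quantile normalization, the deposited series table, another scaling percentile, the mean of a gene's probes, other filters on dim probes, other priors, no chamber term, the CMP arrays alone and leaving out each array.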

Additional observations from a re-analysis of the deposited data

Results flagged for a closer look

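Irx5 over the 4 CMP arrays had a gap between the highest array, postmortem atrial, and the next one of 0.956 of the whole range, above Dixon's critical value for 4 samples. The other 3 CMP arrays were dim for Irx5, and with their signals at the floor of their array, an alternative added after seeing the data, the ratio was 0.795, below that value. Irx5 was chosen on these arrays, so this is a description. By chance about 1 in 20 groups of replicates pass that critical value. These 4 arrays are different sources, so that rate does not apply to them.

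The ventricular minus atrial difference in postmortem and living CMPs passed the interaction test for 4 genes, on the arrays on which they were chosen, so the values are a description and not independent evidence. They were (postmortem minus living) -3.72 for Irx1, -2.43 for Irx3, 2.66 for Meox1 and 3.43 for Meox2. Each source is 1 array, and postmortem atrial CMPs are the array least like the other CMPs over all genes. With dim signals at the floor of their array the values were -3.51 for Irx1, -2.43 for Irx3, 0.49 for Meox1 and 1.99 for Meox2.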

How the results depend on the processing

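Of 589 values recomputed for single members, 513 kept their direction and side of the threshold (or moved by less than the spread), 28 lost a call, 30 gained one, 18 moved and 0 reversed. Requiring signal above background on both sides left 2 of 2 members called against fetal heart and 2 of 2 against adult heart, since fewer genes remained. Over all genes 3486 of 16830 and 3187 of 16313 were then lower in CMPs. For adult against fetal heart 0 of 7 members were called, beside 5633 of 17501 genes, and for the interaction 0 of 2 members. Without a chamber term 2 members were called lower in CMPs against adult heart, beside 5067 of 20270 genes. The interaction gave 1 call with normexp, 0 with quantile normalization, 2 with no trend and 2 without the adult heart array, and the cause was not tested. It could not be refitted without a CMP or fetal array. Leaving out arrays gave 6 to 8 calls against fetal heart, 5 to 7 against adult heart, 1 to 4 for adult against fetal heart (4 without any 1 of the CMP arrays) and 0 to 6 for postmortem against living CMPs. The highest counts of the last range came with a ventricular CMP array left out, when the atrial pair alone decides the contrast. Nothing is read from them. With 1 residual degree of freedom such fits rest on the fetal pair. Members without overlap between chambers numbered 3 to 5 under the other settings, and nothing is read from these counts. With normexp, which shrinks differences between dim signals, the postmortem chamber difference was -4.24 for Irx1, 1.99 for Meox1 and 3.45 for Meox2. A slide block was not run because all arrays share 1 slide. No paired analysis was possible because the replicate numbers of the CMPs only name the chamber, which is already a term of the fit. Signals near background limit Irx2, Irx5 and Irx6 in CMPs.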
